A study of Mus musculus with 3 samples.

Results

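Nras, Pdgfb and Trp53 are the mouse counterparts of the genes manipulated to make SB28, a transplantable mouse glioblastoma line. The 3 genes were taken by symbol from the 24421 gene lines of the count tables, with earlier results of these data known. As background that the sample labels do not state, SB28 is known to descend from a brain tumour induced by Sleeping Beauty transposon transfer of an activated NRAS, a PDGF ligand and a short hairpin RNA against p53. The labels give a single group of 3 RNA-seq libraries of SB28, with brain as the source and C57BL/6 as the genetic background, and no treatment, passage or culture condition. There is no group of normal brain or of cells without the introduced genes, so genes can be compared with each other within the line and across its 3 libraries, and the size of the p53 knockdown cannot be measured. All libraries come from 1 line, so the values describe that line alone.

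RAS proteins are small GTPases of the inner face of the cell membrane that, when bound to GTP, switch on the RAF, MEK and ERK kinases and the PI3 kinases. Activated forms stay in the GTP-bound state. Platelet-derived growth factors are secreted dimers that bind and dimerise the receptor tyrosine kinases encoded by Pdgfra and Pdgfrb. In the brain, PDGF-A is known as a growth factor of oligodendrocyte progenitors and PDGF-B as the endothelial signal that recruits pericytes. The transcription factor p53 is held at a low protein level by MDM2 and, once stabilised by stress signals, raises the transcription of genes for cell cycle arrest, apoptosis and DNA repair.

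Nras lies at chr3:103058285-103067914 on the plus strand of GRCm38. Of the 5594 windows of 50 bases in the annotated Nras transcripts (GENCODE M21), 0.733% also occurred in a transcript of another gene, against 0% of the Pdgfb windows and 3.95% of the Trp53 windows. None of the 3 genes had exon bases covered by an exon of another listed gene. The deposited counts hold no base calls, so they do not show which allele of Nras was transcribed. Reads of a resident gene and of its introduced copy cannot be told apart in them, and the sequences of the introduced copies and of the hairpin were not analysed here.

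The gene lines summed to 36019009, 28990128 and 32632858 counts in replicates 1, 2 and 3. Levels are given as CPM, the count of a gene per 1000000 counts of its library, and, where genes are compared with each other, as CPM per kilobase of annotated exon. Detection required at least 1 CPM in each of the 3 libraries, which was met by all of Nras, Pdgfb and Trp53 and by 46.6% of all gene lines. Nothing in the labels says that the libraries came from separate cultures, so SDs and p-values cover only the spread of these 3 samples, and that spread may be technical. Replicate 3 stood apart. In a chi-square test of the 3 counts of each gene after TMM scaling, with Benjamini-Hochberg adjustment, 65.7% of 12737 genes differed between libraries (adjusted p under 0.05), and 8369 such genes became 256 when replicate 3 was left out. Lowest in replicate 3 were 31.5% of the genes tested and highest there 33.1%. Replicates 1 and 2 still differed by more than counting noise, with a median chi-square 1.52 times that of pure counting, and were kept as separate samples. The share of reads that fell on no annotated gene was 5.19%, 5.27% and 6.54% in replicates 1, 2 and 3. In bulk libraries, fewer cells with a message and less of it per cell cannot be told apart.

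Pdgfb was the most abundant of the 3 genes, Nras followed, and Trp53 was low. Pdgfb, which encodes the B chain of PDGF, had 10405, 8059 and 8000 counts in replicates 1, 2 and 3, or 289, 278 and 245 CPM. Nras had 5689, 4654 and 5421 counts, or 158, 161 and 166 CPM. Trp53, which encodes p53, had 340, 251 and 341 counts, or 9.44, 8.66 and 10.4 CPM. The exact Poisson 95% intervals of the Trp53 values, which cover counting error only, ran from 8.46 to 10.5, from 7.62 to 9.80 and from 9.37 to 11.6 CPM and overlapped each other. The lowest Pdgfb library lay above the highest Nras library, and the lowest Nras library above the highest Trp53 library.

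Among the 11379 detected genes, Pdgfb at a mean of 271 ± 22.8 CPM (SD, n = 3) exceeded 94.2% of them, Nras at 162 ± 4.18 CPM exceeded 88.1%, and Trp53 at 9.52 ± 0.898 CPM exceeded 19.9%. In order of mean CPM over all gene lines, Pdgfb was number 665, Nras number 1353 and Trp53 number 9118. Scaled by exon length, Pdgfb averaged 65.0 ± 5.47 CPM per kilobase, which was 8.59 times the median detected gene at 7.57. On the same scale Nras averaged 30.3 ± 0.784, or 4.002 times that median, and Trp53 averaged 2.35 ± 0.222, or 0.311 times. The scale divides by the full union of exons, which is 5331 bases for Nras, 4161 for Pdgfb and 4045 for Trp53, and so assumes that reads came from the whole of it.

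**Figure D1:**
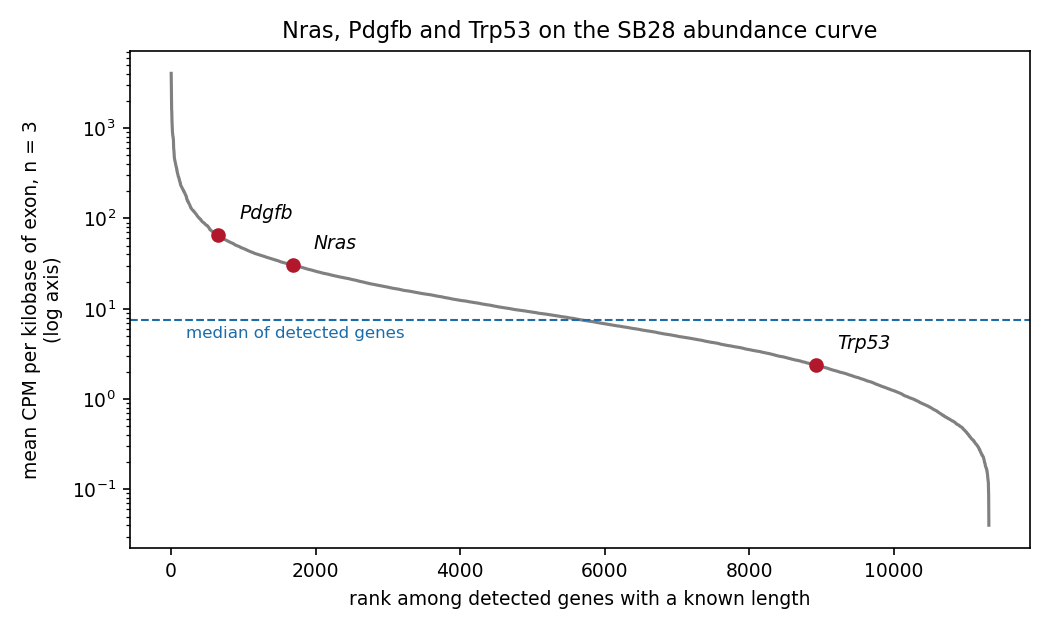
Mean CPM per kilobase of exon over the 3 libraries (y axis, log scale) of every detected gene with a known length, in order from most to least abundant (x axis, rank), with Pdgfb, Nras and Trp53 as red points. The dashed line is the median detected gene at 7.57; Pdgfb at 65.0 and Nras at 30.3 lie above it and Trp53 at 2.35 lies below it.

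Set against each other within each library, Pdgfb lay 2.14-fold above Nras per base of exon (range over libraries 1.89 to 2.34). Pdgfb lay 27.6-fold above Trp53 (22.8 to 31.2), and Nras lay 12.9-fold above Trp53 (12.05 to 14.04). In each of these ratios all 3 libraries fell on the same side of equality and the mean log2 ratio exceeded 2 SD, the rule used here for a difference larger than the spread between replicates. All 14 gene pairs that were compared met it, but they were chosen with earlier results of these data known. What share of gene pairs at large would meet the rule was not computed. Flipping the signs of the 3 log2 ratios in an exact permutation test (two-sided) gave p = 0.25 for each pair, the smallest value that 3 libraries allow, so no pair could reach the usual threshold.

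**Figure D2:**
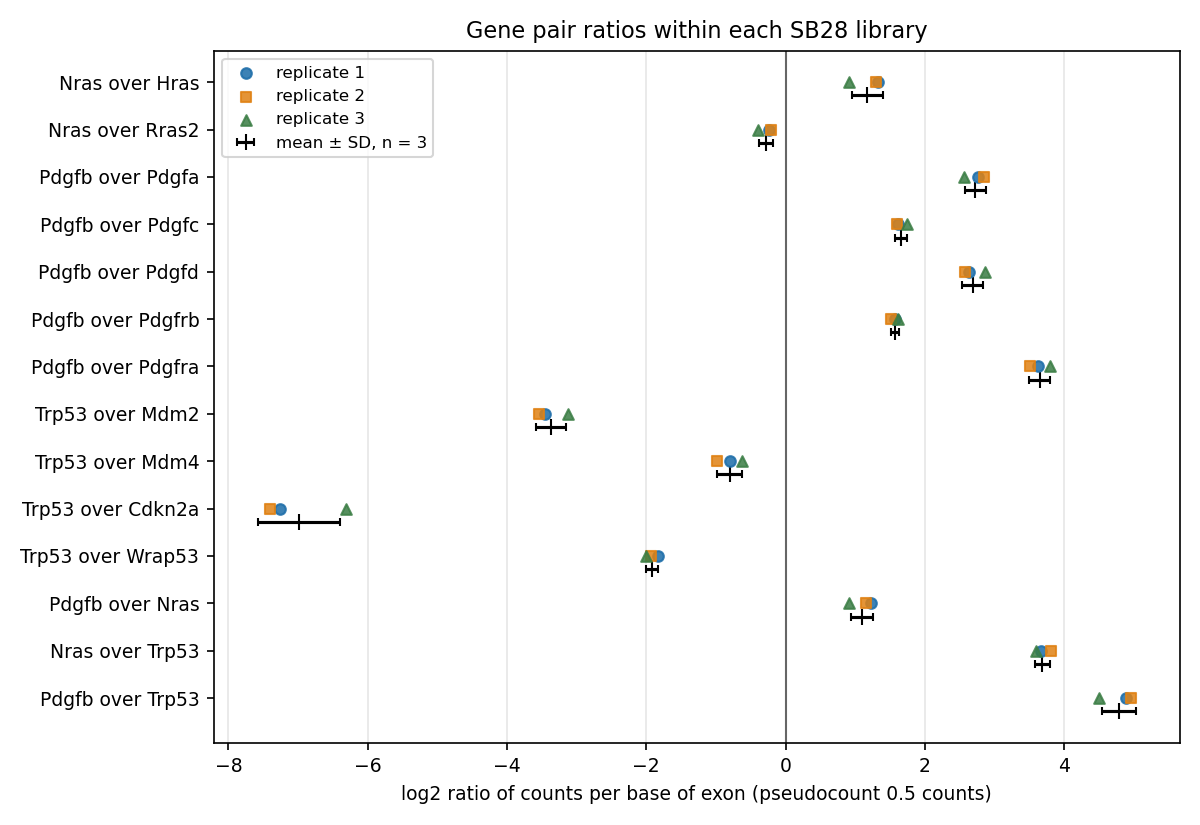
Log2 ratios of counts per base of exon within each library for 14 gene pairs (x axis, 0 is equality), with 1 point per library and the mean ± SD of the 3 libraries below the points. Ratios with Pdgfb on top lie right of 0, those of Trp53 over its regulators and over Wrap53 left of it, and Nras lies right of 0 against Hras and left of it against Rras2.

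Nras was more abundant than Hras, which encodes a close relative. Hras had 44.2, 45.9 and 61.6 CPM in replicates 1, 2 and 3 and was highest in replicate 3. The ratio of Nras to Hras per base of exon was 2.26 (lowest library 1.89, highest 2.50), which exceeded the spread between replicates, and it was 3.23 without the length correction. Hras differed between libraries in the chi-square test (adjusted p = 4.52e-27), and the ratio of Nras to Hras was smallest in replicate 3.

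The wider RAS subfamily was broadly present, and Nras was among its more abundant members, in a place that depends on the exon lengths. By CPM, without length, Nras at 158, 161 and 166 and Rap1b at 165, 174 and 153 in replicates 1, 2 and 3 overlapped, and both lay above the other 14 genes in every library. Per length the order was different. Of the 16 genes described, 14 were detected (against 46.6% of all gene lines). The median of the 16 was 4.08 on the log2(CPM per kilobase + 1) scale, against 0.29 over all genes and 3.10 over detected genes. Per length, Rap1b, a RAP GTPase of cell adhesion, led at 56.8 ± 3.48 CPM per kilobase. Rras2, also called TC21, followed at 36.8 ± 3.43, Rras at 36.1 ± 16.2 and Rap2c at 33.0 ± 2.75, with Nras next at 30.3 ± 0.784. The range of Nras over libraries, 29.6 to 31.2, lay inside that of Rras, 17.4 to 46.6, and overlapped that of Rap2c, 29.8 to 34.8, so these neighbours in the order did not differ beyond their spread. Rap1b and Rras2 lay above Nras in all 3 libraries and 11 of the other 15 genes below it in all 3.

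Below Nras came Rap1a at 23.0 ± 1.02 CPM per kilobase, the RAL gene Rala at 18.6 ± 0.588 and Rap2a at 17.6 ± 2.08. Ralb at 14.4 ± 1.55 overlapped Hras at 13.5 ± 2.58, and Rheb, the GTPase that activates mTORC1, had 10.3 ± 0.226. Rap2b, Rit1 and Mras lay between 5.62 and 9.12 CPM per kilobase. The neuronal Rit2 had at most 0.0919 CPM in any library. Eras, an embryonic stem cell RAS gene, had 0 counts in all 3, where 3 counts, the limit that a count of 0 allows, would be 0.0833, 0.103 and 0.0919 CPM. Nras lay 0.825-fold relative to Rras2 (range 0.764 to 0.863), but that ratio turned to 1.24-fold without the length correction, so the order of these 2 genes rests on the exon lengths. Rras had the widest spread of the family, at 52.2, 49.6 and 19.6 CPM in replicates 1, 2 and 3. Of the 14 genes tested, 10 differed between libraries (71.4%, against 65.7% of all genes). Of these 10, 5 were lowest and 5 highest in replicate 3, near the 47.9% and 50.4% of all genes that differed.

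**Figure D3:**
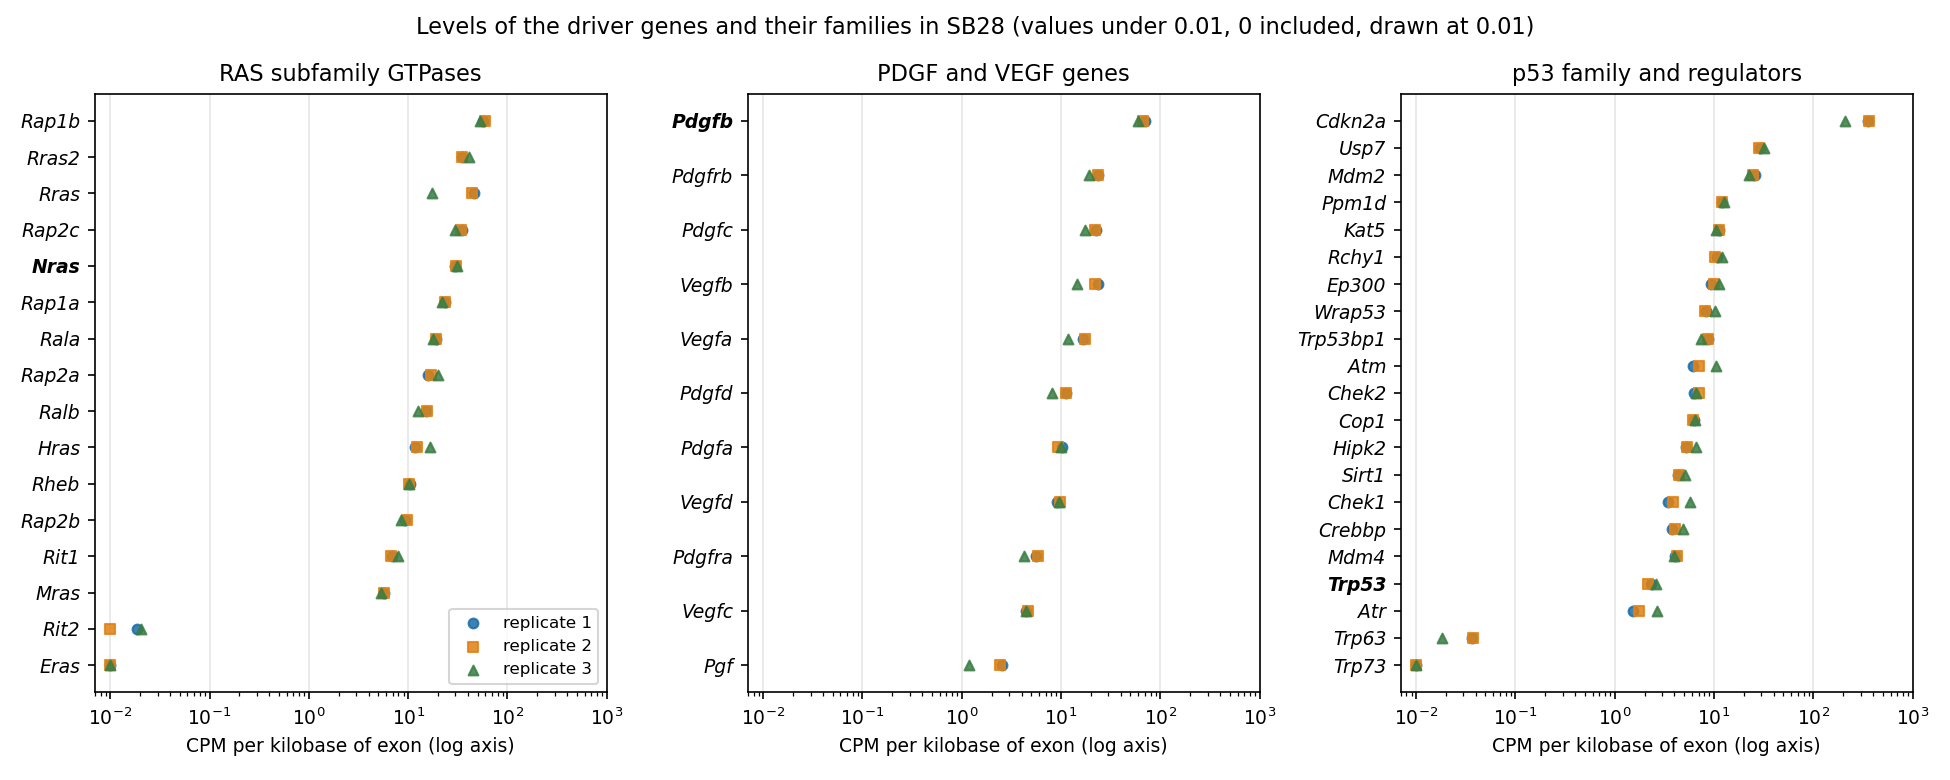
CPM per kilobase of exon (x axis, log scale, values under 0.01 drawn at 0.01) in each of the 3 libraries for the RAS subfamily, the PDGF and VEGF genes, and the p53 family with its regulators, each ordered by mean. Nras is in place 5 of 16 RAS genes, Pdgfb leads the growth factors and receptors, and Trp53 lies near the low end of its panel with only Atr, Trp63 and Trp73 below it.

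RAS proteins work only at membranes. The genes for the enzymes that place them there were all detected (11 of 11, against 46.6% of all gene lines). Their median was 3.63 on the log2 scale, against 3.10 over detected genes. Of the 11, 7 differed between libraries (63.6%, against 65.7% of all genes). Zdhhc9, which encodes the palmitoyltransferase known to act on NRAS and HRAS, had 96.1, 91.4 and 66.6 CPM and was lowest in replicate 3. Its partner Golga7 averaged 72.9 ± 4.25 CPM. Abhd17a, for a depalmitoylase known to act on NRAS, averaged 68.3 ± 2.24 CPM, and Icmt, for the methyltransferase of the RAS C-terminus, 68.2 ± 2.76 CPM (SD, n = 3).

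All 10 genes whose messages are widely read as a measure of MAPK activity were detected, against 46.6% of all gene lines. Their median was 5.196 on the log2(CPM per kilobase + 1) scale, against 3.10 over detected genes. The cyclin gene Ccnd1 averaged 1240.2 ± 22.5 CPM. The ERK phosphatase gene Dusp6 had 323, 322 and 206 CPM in replicates 1, 2 and 3. The ETS factor genes Etv5 and Etv4 averaged 226 ± 29.8 and 74.1 ± 10.96 CPM, and the inhibitor genes Spry4 and Spry2 85.9 ± 17.8 and 77.6 ± 2.38 CPM. Epha2 averaged 160 ± 15.0 CPM, Phlda1 107 ± 21.4, Dusp4 67.4 ± 3.35 and Epha4 7.53 ± 2.38 (SD, n = 3 each). Of the 10, 9 differed between libraries (90%, against 65.7% of all genes), and Spry2 did not pass the test. Lowest in replicate 3 were 5 of the 9 (Ccnd1, Dusp6, Etv4, Etv5 and Spry4), or 4 with DESeq2 size factors. Highest there were 4 (Phlda1, Dusp4, Epha2 and Epha4). Among all genes that differed, 47.9% were lowest and 50.4% highest in replicate 3. Nras itself was highest in replicate 3, as were 4 of the MAPK activity genes, while 5 were lowest there, Dusp6 among them. The highest Nras library lay 1.06-fold above the lowest after TMM scaling. How Nras and the MAPK activity genes relate was not tested.

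Pdgfb dominated the PDGF family. Per length it made up 61.3%, 61.1% and 62.4% of the sum of the 4 ligand genes in replicates 1, 2 and 3. Pdgfc made up 19.5 ± 0.907%, Pdgfd 9.56 ± 0.864% and Pdgfa 9.33 ± 1.08% (SD, n = 3). Pdgfb lay 3.15-fold above Pdgfc (range over libraries 3.02 to 3.37), 6.46-fold above Pdgfd (5.96 to 7.26) and 6.63-fold above Pdgfa (5.92 to 7.20). The spread between replicates was smaller than each of these 3 ratios, and without the length correction they were 2.58, 8.52 and 8.84. The share of Pdgfb moved by less between libraries than its level did.

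Both receptor genes were detected beside the ligand. Pdgfrb, for the receptor that binds PDGF-B with high affinity, had 128, 128 and 105 CPM, and Pdgfra, for the receptor that binds all of the A, B and C chains, had 56.5, 58.5 and 42.2 CPM. Pdgfb lay 2.97-fold above Pdgfrb per base of exon (2.86 to 3.08) and 12.5-fold above Pdgfra (11.4 to 13.98), or 2.26-fold and 5.204-fold without the length correction. In the order of levels, Pdgfb at 65.0 ± 5.47 CPM per kilobase was followed by Pdgfrb at 21.9 ± 2.42 and Pdgfc at 20.7 ± 2.80. The ranges of Pdgfrb and Pdgfc overlapped, though Pdgfrb was the higher within each library. Pdgfd at 10.2 ± 1.77 and Pdgfa at 9.80 ± 0.469 also overlapped, and Pdgfra was lowest at 5.23 ± 0.885.

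Of the 6 PDGF genes, 5 differed between libraries (83.3%, against 65.7% of all genes). Each of the 5 had its lowest value in replicate 3 (100%, against 47.9% of all genes that differed). Only Pdgfa, at 31.7, 28.9 and 31.0 CPM, did not pass the test (adjusted p = 0.129, chi-square). The pericyte marker list, in which Pdgfrb is itself the most abundant member, summed to 136, 138 and 110 CPM in replicates 1, 2 and 3. Of its other members, Rgs5 had 6.91, 8.14 and 4.32 CPM, Anpep 1.499, 1.45 and 1.195 CPM, Des and Abcc9 under 0.1 CPM, and Kcnj8 0 counts.

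The VEGF genes, whose proteins share the cystine knot fold of the PDGFs, were all detected (against 46.6% of all gene lines) but lower than Pdgfb. Vegfb had 20.1 ± 4.78 CPM per kilobase and Vegfa 15.3 ± 3.01. Their ranges over libraries overlapped, but within each library Vegfb lay above Vegfa per length. Vegfd, listed under its older symbol, followed at 9.52 ± 0.314, Vegfc at 4.50 ± 0.102 and Pgf, for placental growth factor, at 2.05 ± 0.754 (SD, n = 3 each). Of these 5 genes, Vegfa, Vegfb and Pgf differed between libraries (60%, against 65.7% of all genes). All of these were lowest in replicate 3, as were 47.9% of all genes that differed. The level of Pgf was 7.33, 7.11 and 3.43 CPM in replicates 1, 2 and 3.

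Genes for the handling of PDGF proteins were present except Pcsk5, a proprotein convertase gene with 0 counts. Of the 8, 7 were detected (against 46.6% of all gene lines), and the median of the list was 4.03 on the log2 scale. Of the 7 tested, 6 differed between libraries (85.7%, against 65.7% of all genes). Lrp1, for an endocytic receptor known as a co-receptor of PDGFRβ, averaged 1626 ± 142 CPM. Furin, for the convertase that cleaves the PDGF-A and PDGF-B precursors, averaged 222 ± 4.68 CPM. Plat, for the tissue plasminogen activator that activates PDGF-C, had 173, 164 and 122 CPM, and Nrp1, for neuropilin 1, a co-receptor of PDGFs and VEGF, had 122, 126 and 74.5 CPM. All 14 genes for partners of activated PDGF receptors were detected (against 46.6% of all gene lines), at a median of 4.12. Of the 14, 12 differed between libraries (85.7%, against 65.7% of all genes). Most abundant of the 14 were the adaptor gene Shc1 (346 ± 39.6 CPM), the phosphatase gene Ptpn11 (290 ± 10.01), the adaptor gene Crk (226 ± 10.9) and the kinase gene Src (177 ± 12.9).

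Trp53 was the only detected member of its family and lay below nearly all of its regulators. Trp63 had 0.305, 0.310 and 0.153 CPM and Trp73 had 0 counts in all libraries. All 18 genes for p53 regulators were detected (against 46.6% of all gene lines). Of the 18, 17 lay above Trp53 per length in all 3 libraries (94.4%, against 75.2% of detected genes). None lay below it in all 3. The exception was Atr, a checkpoint kinase gene: Trp53 had 2.33, 2.14 and 2.58 CPM per kilobase, and Atr had 1.54, 1.74 and 2.65. Trp53 lay 10.3-fold below Mdm2 (range over libraries 8.71 to 11.6), the gene for its ubiquitin ligase, and 1.74-fold below Mdm4 (1.55 to 1.98), the gene for its transcriptional inhibitor. Without the length correction the Mdm4 distance was larger, at 6.38-fold, and that to Mdm2 was 13.002-fold. All these ratios, and those that follow for Cdkn2a and Wrap53, were larger than the spread between replicates.

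Cdkn2a was the most abundant regulator and the furthest from Trp53. It encodes p16, an inhibitor of CDK4 and CDK6, and ARF, an inhibitor of MDM2, which gene counts do not separate. Its level was 420, 424 and 242 CPM in replicates 1, 2 and 3, and Trp53 lay 127-fold below it per base of exon (79.8 to 169) and 36.9-fold without the length correction. Usp7, for a deubiquitinase of MDM2 and p53, averaged 231 ± 15.1 CPM, Ep300, for an acetyltransferase of p53, 145 ± 14.0, and Mdm2 124 ± 8.24 (SD, n = 3 each). The median of the 18 regulators was 3.18 on the log2(CPM per kilobase + 1) scale. Of the 18, 13 differed between libraries (72.2%, near the 65.7% of all genes). Of these 13, 10 were highest and 3 lowest in replicate 3 (76.9% and 23.1%, against 50.4% and 47.9% of all genes that differed).

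The genes known as p53 targets were nearly all detected, and the share of them above Trp53 was near that of all detected genes. The 3 lists of targets together held 38 genes, of which 37 were detected (against 46.6% of all gene lines). Of the 38, 28 lay above Trp53 per length in all 3 libraries (73.7%, against 75.2% of detected genes). The median of the 38 was 3.05 on the log2(CPM per kilobase + 1) scale, against 3.10 over detected genes. Only the cytokine gene Gdf15 was below detection, at 0.4997, 0.793 and 0.215 CPM. Below Trp53 in all libraries were Gdf15, Sfn, Fas, Pidd1, Ddb2 and Gls2, while Xpc, Rrm2b, Trp53inp1 and Trp53i11 fell below it in replicate 3 alone. Many of these genes are also controlled by other factors, and without cells of normal p53 level the counts do not say how much of any of them depends on p53.

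Most p53 targets differed between libraries, mostly with the lowest value in replicate 3. Trp53 was highest in replicate 3 but did not pass the test (adjusted p = 0.0847, chi-square, with 0.0309 to 0.738 over the alternatives). Variation of Trp53 is thus not established, so whether the targets vary with it cannot be judged. Of the 38 targets, 30 differed between libraries (78.9%, against 65.7% of all genes). Of these, 25 were lowest in replicate 3 (65.8% of the targets, against 31.5% of all genes) and 5 were highest there (13.2%, against 33.1%). The counts were the same with plain totals and with DESeq2 size factors. Without replicate 3, 0 of the 38 targets differed between replicates 1 and 2 in the chi-square test with adjustment, and 6 had an unadjusted p under 0.05. The share of reads on no annotated gene, given above, was also highest in replicate 3, and its part in these differences was not tested.

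**Figure D4:**
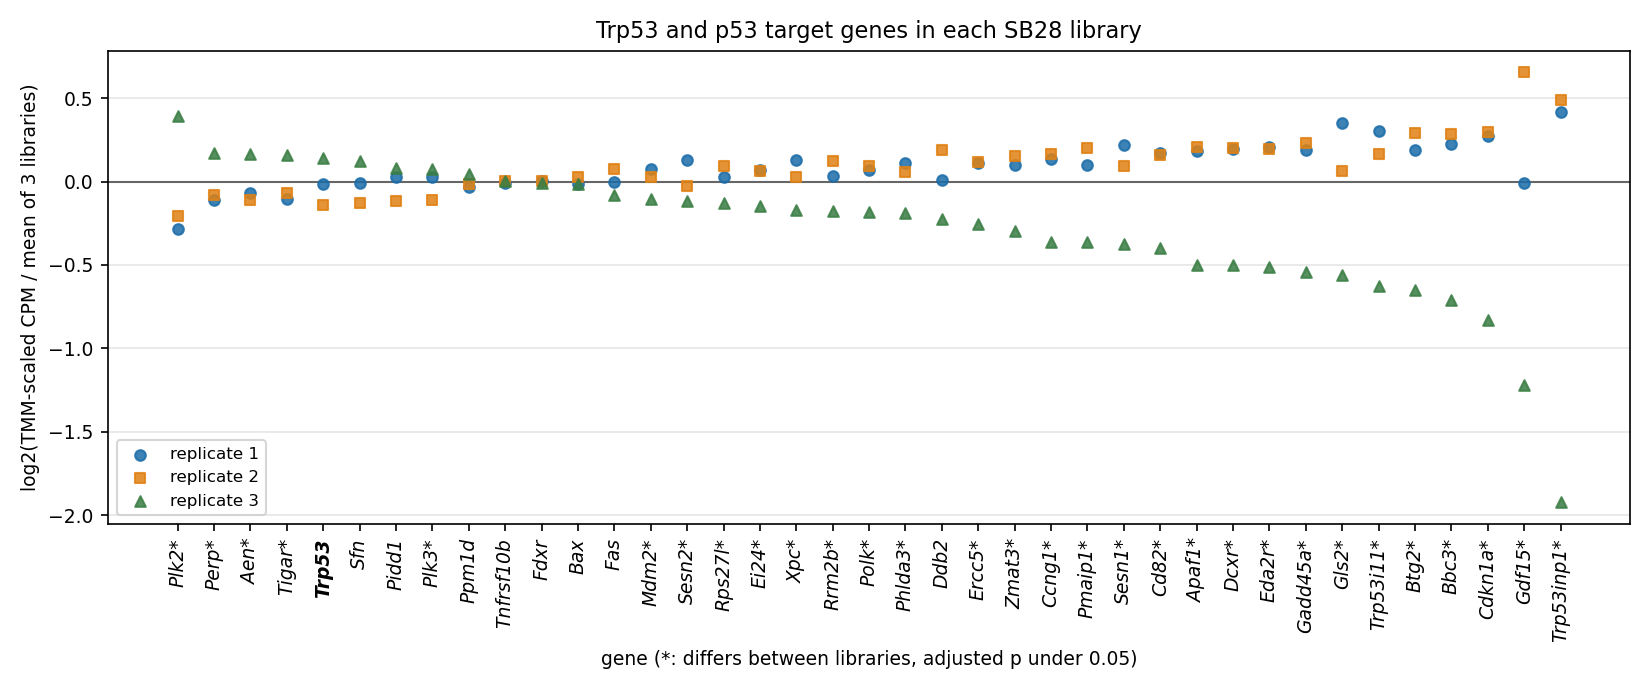
Log2 ratio of TMM-scaled CPM in each library to the mean of the 3 libraries (y axis) for Trp53 and the 38 p53 targets, ordered by the value in replicate 3; asterisks mark genes that differed between libraries. Replicate 3, the green triangles, lies below the other libraries for 25 of the marked genes and above them for 5, and Trp53 stands among those where it is highest.

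Among the 15 targets for arrest and feedback, 13 differed between libraries (86.7%, against 65.7% of all genes). Lowest in replicate 3 were 11 of the 13 (84.6%, against 47.9% of all genes that differed). Cdkn1a, for the CDK inhibitor p21, had 160, 164 and 74.4 CPM in replicates 1, 2 and 3. Ccng1, for cyclin G1, had 493, 504 and 347 CPM, Zmat3 150, 156 and 113 CPM, and the antiproliferative Btg2 44.2, 47.5 and 24.5 CPM. In each of these 4 genes replicate 3 lay well under the other 2 libraries, which lay close together. Mdm2, Gadd45a, Sesn1, Sesn2, Phlda3, Cd82 and Gdf15 were also lowest in replicate 3, with highest-to-lowest ratios from 1.13 for Mdm2 to 3.67 for Gdf15. The polo-like kinase genes Plk2, at 86.7, 92.0 and 138 CPM, and Plk3, at 41.4, 37.6 and 42.6 CPM, were highest there. The phosphatase gene Ppm1d and Sfn, for 14-3-3 sigma, did not pass the test.

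Among the 12 targets for apoptosis, 8 differed between libraries (66.7%, near the 65.7% of all genes). Lowest in replicate 3 were 6 of the 8 (75%, against 47.9% of all genes that differed). Trp53inp1, for a stress protein that binds p53, had the widest spread of all the targets, at 33.8, 35.6 and 6.65 CPM, a 5.32-fold range. The BH3-only genes Bbc3, for PUMA, and Pmaip1, for NOXA, had 10.6, 11.1 and 5.52 CPM and 53.8, 58.0 and 38.9 CPM. Apaf1, for the apoptosome scaffold, had 74.0, 75.4 and 45.9 CPM. Eda2r and Ei24 were likewise lowest in replicate 3, while Aen and Perp were highest there. Bax, for the pore-forming BCL2 relative, had 97.4, 100.2 and 96.8 CPM and did not pass the test, nor did the death receptor genes Fas and Tnfrsf10b or Pidd1.

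Among the 11 targets for repair and metabolism, 9 differed between libraries (81.8%, against 65.7% of all genes). Lowest in replicate 3 were 8 of the 9 (88.9%, against 47.9% of all genes that differed). Rps27l, for a ribosomal protein paralog, was the most abundant at 123, 129 and 110 CPM. Trp53i11 had 17.4, 15.8 and 9.07 CPM and Gls2, for a glutaminase, 3.83, 3.14 and 2.02 CPM. Xpc, Polk and Ercc5, for DNA repair proteins, Rrm2b, for a ribonucleotide reductase subunit, and Dcxr were also lowest in replicate 3, with highest-to-lowest ratios from 1.21 to 1.62. Tigar, for a phosphatase of sugar metabolism, was highest there at 18.9, 19.4 and 22.6 CPM. Ddb2 and Fdxr did not pass the test.

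Nras and Pdgfb lay above the median of their chromosomal neighbours under every setting tried, and Trp53 under all but 2. Over all detected genes, 13.1% lay above Nras per length in all 3 libraries, 5.13% above Pdgfb and 75.2% above Trp53. How often other genes of like level lie above their neighbours was not tested, so these differences may reflect level alone. The median of the 10 nearest protein-coding genes, 5 on each side, was taken in each library. Nras lay above the median of its neighbours by 6.89 ± 0.31 on the log2 scale (SD, n = 3), but 5 of the 10 were below detection, and against the detected 5 alone the difference was 2.37. With 3 or 10 neighbours on each side it was 4.02 and 4.21. The muscle AMP deaminase gene Ampd1, 6100 bases away, had 0.0627 CPM per kilobase, and Tshb, for a thyrotropin subunit, had 0 counts. Of the nearest 10 genes 1 lay above Nras.

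Pdgfb lies at chr15:79995874-80014977 on the minus strand. It lay above the median of its 10 neighbours by 4.37 ± 0.39 on the log2 scale, or by 3.32 against the 8 detected ones and 3.09 with 10 neighbours on each side. Its nearest neighbour, the Polycomb gene Cbx7, 24755 bases away, had 0.781 CPM per kilobase. On the other side, 62814 bases away, the ribosomal protein gene Rpl3 had 388 CPM per kilobase and was the only one of the 10 above Pdgfb. The lowest neighbour was Npcd, with 0 counts.

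Trp53 lies at chr11:69580359-69591873 on the plus strand. It lay above the median of its 10 neighbours by 2.002 ± 0.15 on the log2 scale, but the difference was −0.30 ± 0.47 with 10 neighbours on each side and −1.79 ± 0.16 against the detected neighbours alone. Of the nearest 10 genes 4 lay above Trp53, and of the nearest 20, 11 did, against 3 of 20 for Pdgfb. Wrap53, for a telomerase and Cajal body protein, lies 104 bases away on the opposite strand and had 8.93 CPM per kilobase. Trp53 lay 3.78-fold below it (range 3.56 to 3.995), or 1.93-fold without the length correction. On the other side, 7863 bases away, Atp1b2 had 0.129 CPM per kilobase. The highest neighbour was Fxr2 at 41.8 CPM per kilobase and the lowest Shbg with 0 counts.

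**Figure D5:**
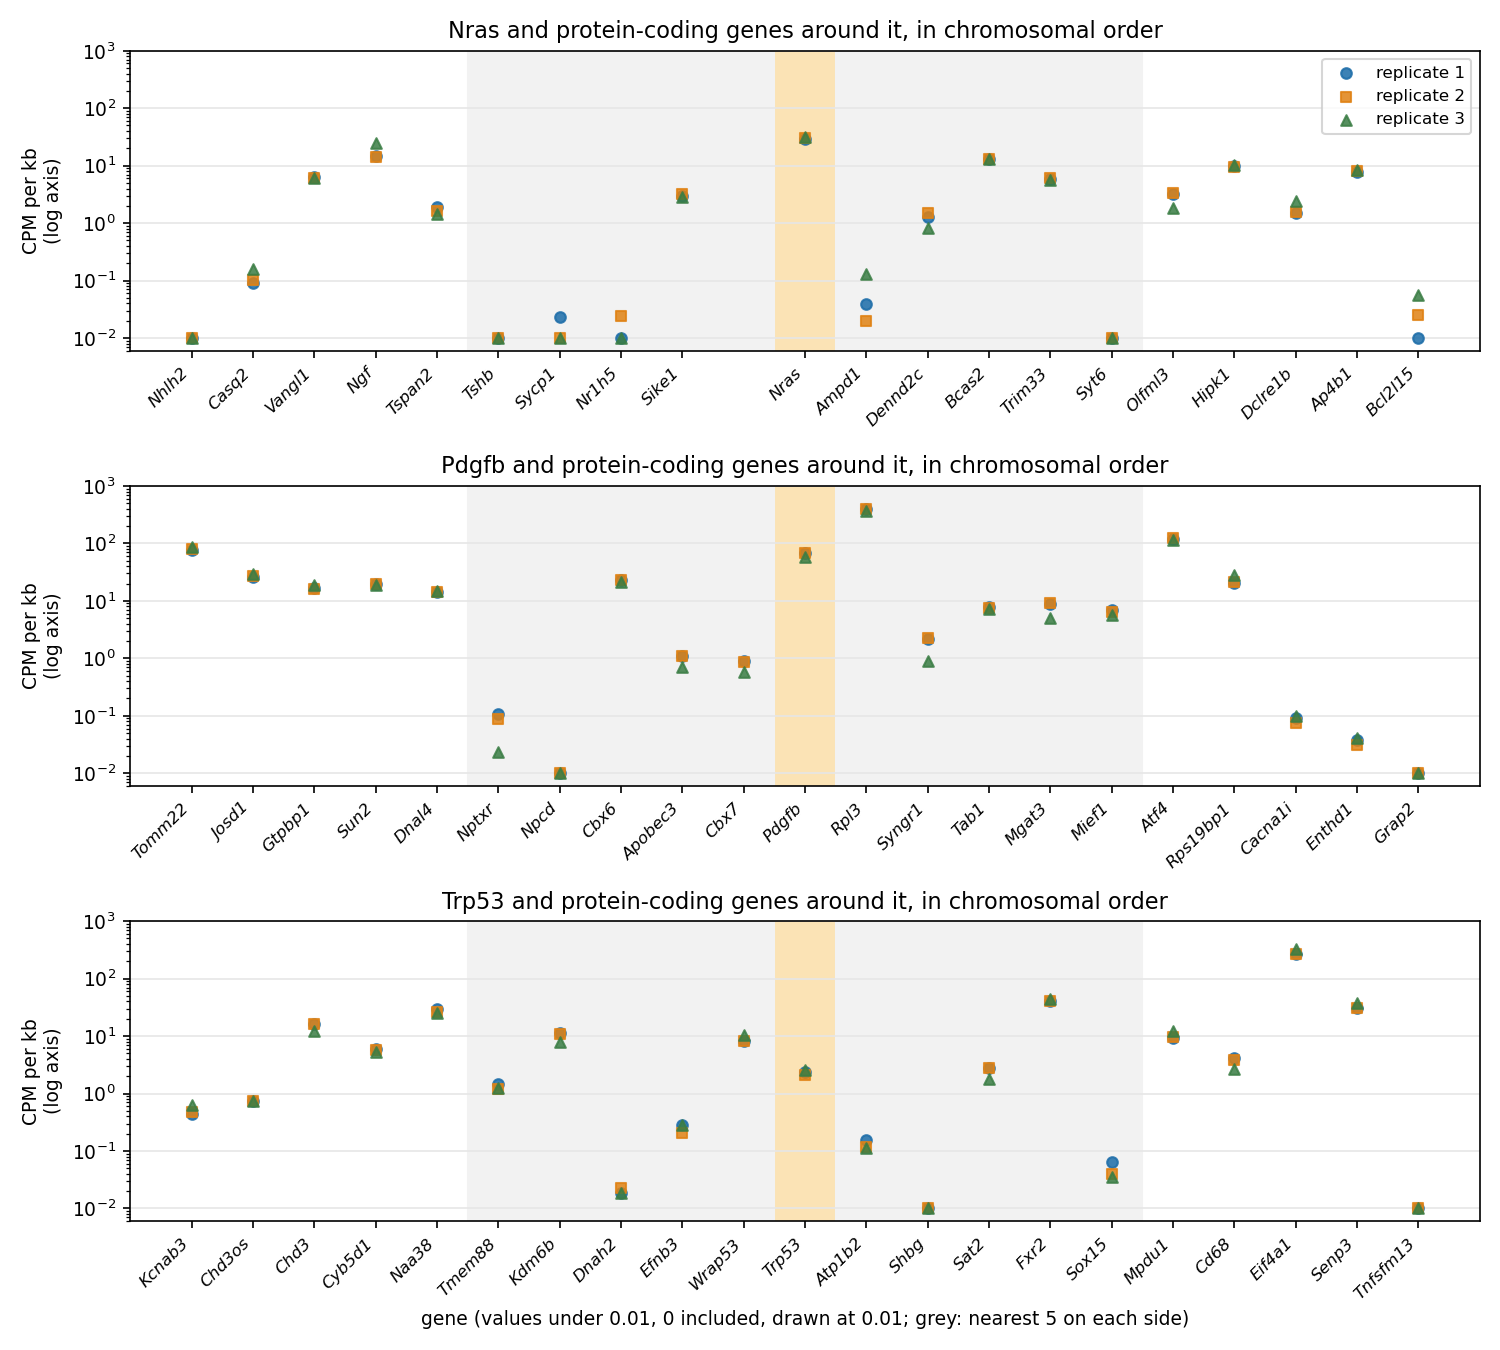
CPM per kilobase of exon in each library (y axis, log scale, values under 0.01 drawn at 0.01) for Nras, Pdgfb and Trp53 (orange band) and protein-coding genes around them in chromosomal order (x axis), with the nearest 5 per side in grey and an empty place for a gene not shown. Rpl3, Atf4 and Tomm22 lie above Pdgfb, while 11 of the 20 neighbours lie above Trp53.

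Between libraries, Nras was steady, with TMM-scaled levels that differed by 1.06-fold between the highest and the lowest library and a coefficient of variation of 2.92%, against 1.38% from counting alone. This still passed the chi-square test (adjusted p = 0.0168), but not without replicate 1 (0.0580) or without replicate 3 (0.844). Of 2486 genes within 2-fold of its level, 17.1% had a smaller range. Pdgfb differed by 1.17-fold (adjusted p = 1.06e-25, lowest in replicate 3), and 55.5% of 1464 genes near its level had a smaller range. Without replicate 3 its adjusted p was 0.154. Trp53 differed by 1.22-fold, with a coefficient of variation of 9.82% against 5.67% from counting alone, and 42.0% of 2556 genes near its level had a smaller range. So 2 of the 3 genes differed between libraries, a share near the 65.7% of all genes.

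By the distance of log2 CPM over the 3 libraries, the genes most like Nras were Plekho2, Aak1 and Notch2, at distances of 0.0214, 0.0218 and 0.0254. Those most like Pdgfb were Tmed10, Dnajc10 and Rcc2, at 0.0392, 0.0596 and 0.0715, and those most like Trp53 were Orai1, Dnajb14 and Nalcn, at 0.0660, 0.0831 and 0.0855. Such matches were common, since 144 genes lay within 0.2 of Nras, 41 of Pdgfb and 53 of Trp53.

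Among 21 other genes known to be altered in gliomas, Pdgfb and Nras ranked high and Trp53 low. Of the 21, 20 were detected (against 46.6% of all gene lines). The median of the list was 3.45 on the log2(CPM per kilobase + 1) scale, against 3.10 over detected genes. Per length, 3 of the 21 lay above Pdgfb in all 3 libraries (Cdkn2a, Cdk4 and Idh2) and 17 below it in all 3. Above Nras in all 3 lay those 3 with H3f3a, Cdkn2b and Met, and 14 lay below it. For Trp53, 17 genes lay above it in all 3 libraries (81.0%, against 75.2% of detected genes) and 3 lay below it (Cdk6, Tert and Fgfr3). By CPM the list was led by Cdk4 (427 ± 23.0), Cdkn2a, Met (305 ± 3.001) and Atrx (253 ± 9.30), while Fgfr3 lay below detection at 0.416, 0.483 and 0.613 CPM. Of the 21, 16 differed between libraries (76.2%, against 65.7% of all genes). Of these, 11 were lowest and 4 highest in replicate 3 (68.8% and 25%, against 47.9% and 50.4% of all genes that differed).

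The cell type markers set these levels in context. All 6 markers of glioma and neural stem cells were detected, against 46.6% of all gene lines. Most abundant were Vim (5404 ± 100.1 CPM), Cd44 (870.1 ± 75.0), Nes (427 ± 20.2) and Sox2 (113 ± 2.85). Of 6 astrocyte markers, Aldh1l1 (5.58 ± 0.852 CPM) and S100b (4.26 ± 1.22) were detected, Slc1a2 and Slc1a3 lay below 1 CPM and Gfap and Aqp4 had 0 counts. Of 5 oligodendrocyte lineage markers none was detected. Olig1 and Olig2, factors of the progenitors known to respond to PDGF-A, had 0 counts, and Mbp, Sox10 and Mog all lay below 1 CPM. These 5 do not include Pdgfra, for a receptor of PDGF-A, which averaged 52.4 ± 8.87 CPM. Nor do they include Cspg4, placed here with the glioma and neural stem markers, at 46.9 ± 2.10 CPM. Of 6 neuron markers Tubb3 (19.7 ± 2.16 CPM) was detected, Syt1 passed 1 CPM in 1 library, Snap25, Slc17a7 and Gad1 lay below it and Rbfox3 had 0 counts. The 6 microglia and leukocyte markers (Ptprc, Csf1r, Itgam, Cx3cr1, P2ry12 and Aif1) together summed to 0.611, 0.276 and 0.797 CPM in replicates 1, 2 and 3. Of 6 endothelial markers, Cdh5 (351 ± 42.2 CPM), the VEGF receptor gene Flt1 (95.8, 98.4 and 39.8 CPM) and Kdr (1.61 ± 0.893) were detected, Tek passed 1 CPM in 1 library, Pecam1 had at most 0.111 CPM and Cldn5 had 0 counts.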

How the data were processed

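RNA-seq of the SB28 line was deposited as raw counts per gene symbol, made by the authors from 3 libraries, 1 table each. Bowtie2 2.2.4, HTSeq and the assembly mm10 are named by the submitters' processing notes, with no role, option or order; a strand setting is not given in the sources used here. Each table has 24421 gene lines and 5 summary lines, which were left out of totals and tests; reads aligned to more than 1 position (8.93%, 8.86% and 9.58% in replicates 1, 2 and 3) and reads overlapping several genes (1.01% to 1.05%) are not in the gene counts. Gene positions and lengths came from GENCODE M21 on GRCm38 (23350 symbols matched directly, 650 through RefSeq synonyms, and 421, with 0.748% of counts, not at all). From the counts, CPM over gene lines, CPM per kilobase of the union of exons and log2 ratios within libraries with a pseudocount of 0.5 counts were computed. Differences between libraries were tested with a chi-square test with 2 degrees of freedom after TMM scaling (edgeR 4.0.16, R 4.3.3) where the mean count reached 10, and adjusted over all genes tested (Benjamini-Hochberg). That test compares the libraries with counting noise and says nothing about conditions. It was tried on simulated counts that varied by counting noise alone, apart from changes set in 1 library. How it behaves where libraries vary by more than counting noise was not tested. PCR copies are not independent molecules, so intervals and limits cover counting error only. With 1 group, no test between conditions was possible.

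The members, the 21 lists and the 14 pairs were chosen with earlier results of these data known. Some genes are not reported here. Named were the 3 genes, every member of the RAS, PDGF, VEGF, MAPK activity, p53 family and p53 target lists, the genes of the pairs, the 4 most abundant members of each other list and any lone undetected ones, the nearest, highest and lowest neighbours where reported, and the 3 genes nearest in level. Members named to account for a count of 5 or fewer were chosen after their values were seen. Alternatives were other gene lengths, pseudocounts, neighbour numbers, thresholds, plain totals and DESeq2 1.42.0 size factors, each replicate left out, and, chosen after seeing the data, replicates 1 and 2 averaged. Computing used scipy 1.17.1, numpy 2.4.6 and pandas 2.3.3 under Python 3.11.15, and figures matplotlib 3.10.9.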

Additional observations from a re-analysis of the deposited data

How the results depend on the processing

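The levels of the 3 genes kept within 1 SD under all 18 alternatives, and 124 of 126 recomputed pair ratios kept their direction and their call. The exceptions were both Nras over Rras2, with a log2 ratio of −0.28, which was −0.031 and no longer larger than the spread with the longest transcript as length and 0.31 without length correction; both follow from the lengths used. Of 30 recomputed neighbour differences, 28 kept direction and call; Trp53 turned to −0.30 with 10 neighbours on each side and to −1.79 against detected neighbours alone, a median that by construction leaves out neighbours of low level. Leaving out 1 replicate gave 256 to 8191 genes that differed between libraries, against 8369 with all, and 0 to 28 of the p53 targets, against 30; the low ends are without replicate 3. Detected list members changed by more than 1.5 times for the astrocyte markers (4 at 0.5 CPM and 0 at 5 CPM, against 2) and the pericyte markers (1 at 5 CPM, against 3). Averaging replicates 1 and 2 changed no direction or call. No paired analysis was possible because there is 1 group. Depth limits Trp53 most, with 251 to 341 counts a library.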

Other observations

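A hairpin against p53 is processed by the cell's own RNA interference machinery. Of the 11 genes of that machinery, 10 were detected (against 46.6% of all gene lines). The median of the 11 was 3.34 on the log2(CPM per kilobase + 1) scale, against 3.10 over detected genes. Ran, which powers nuclear export, had 531, 532 and 693 CPM in replicates 1, 2 and 3, and Xpo5, for the exporter of hairpin precursors, had 140, 138 and 195 CPM. Drosha, for the nuclear microRNA processing enzyme, averaged 152 ± 6.14 CPM, and Ago2, for the slicing Argonaute, had 121, 123 and 165 CPM. Only Ago4 was below detection, at 0.944, 0.931 and 0.306 CPM. Of the 11 genes, 9 differed between libraries (81.8%, against 65.7% of all genes). Of these 9, 7 were highest and 2 lowest in replicate 3 (77.8% and 22.2%, against 50.4% and 47.9% of all genes that differed). Whether these genes bear on the hairpin's activity was not tested.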
